A study of Mus musculus with 6 samples.

Results

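The superoxide dismutases, catalase, glutathione peroxidases and peroxiredoxins described here are 10 genes, Sod1, Sod2, Sod3, Cat, Gpx1, Gpx3, Gpx4, Prdx1, Prdx3 and Prdx5, taken by name from the 21878 genes of the deposited count table. All 10 were found and all 10 passed the filter on low counts. RNA came from mouse Achilles tendon tissue, with 3 libraries from mice whose Achilles tendon had been amputated (cut tendon 1 to 3) and 3 from mice with a sham operation (sham 1 to 3). The series title places the injury in a study of KLF2, PPARγ and mitochondrial dysfunction in heterotopic ossification, which is bone formed outside the skeleton after trauma. The labels give no strain, age, sex, time after surgery or animal identity, and the p-values below therefore cover only how far these libraries differ, which may be technical.

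Superoxide is a by-product of respiration and a product of NADPH oxidases. Superoxide dismutases turn it into hydrogen peroxide in the cytosol, the mitochondrial matrix and the extracellular space. Catalase breaks hydrogen peroxide down in peroxisomes, glutathione peroxidases reduce it and lipid peroxides with glutathione, and peroxiredoxins reduce it through a reactive cysteine that thioredoxin renews. Skeletal muscle and other tissues rich in mitochondria carry much of the mitochondrial forms, and the secreted forms act in the matrix and in plasma.

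The 3 glutathione peroxidases are selenoproteins, in which an in-frame TGA codon is read as selenocysteine at the catalytic site. The coding sequence around that codon is shown because the 3 genes share this feature and yet their fold changes between cut tendon and sham differed in sign. Each line gives 63 bases of GENCODE M21 transcript sequence on the plus strand, with the selenocysteine codon in capitals. It is codon 47 of Gpx1 (GRCm38, chr9:108339451-108339453), codon 73 of Gpx3 (chr11:54907256-54907258) and codon 129 of Gpx4 (chr10:80054737-80054739), counted from the start codon of the longest transcript annotated with the selenocysteine.
Gpx1: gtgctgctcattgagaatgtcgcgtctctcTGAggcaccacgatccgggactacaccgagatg
Gpx3: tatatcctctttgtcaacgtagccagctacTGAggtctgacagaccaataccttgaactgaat
Gpx4: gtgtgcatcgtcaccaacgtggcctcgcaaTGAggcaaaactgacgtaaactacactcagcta

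Libraries held 28410231 to 31346730 counts in cut tendon and 23916839 to 27140226 in sham, and the members held 982 to 40836 counts in a library, so that counting error was small beside the spread between libraries. Cut tendon 3 stood apart from the other cut tendon libraries. The 30 genes of a skeletal muscle list took 1.66%, 0.521% and 16.2% of the counts in cut tendon 1 to 3, against 20.0%, 19.6% and 21.8% in sham 1 to 3. Of these 30 genes, 0 were called higher and 0 lower in the test given below. A tendon list of 8 genes, the collagen gene Col1a1 among them, took 8.04%, 10.1% and 3.88% in cut tendon 1 to 3, against 1.04%, 0.862% and 0.401% in sham. Of 9 tested cartilage genes 8 were called higher, beside 20.4% of all tested genes. In such bulk tissue, fewer cells of a type and less RNA per cell cannot be told apart.

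Of the 10 genes, Prdx1, Gpx1 and Gpx3 were higher in cut tendon, Cat was lower and 6 were not called (quasi-likelihood test of edgeR, threshold 0.05 after Benjamini-Hochberg adjustment over 14561 tested genes). Over all tested genes 20.4% were called higher and 12.3% lower, 32.7% in all, so 4 of 10 is close to the share of the whole table. The groups of CPM values (counts scaled to library size by TMM) did not overlap for 6 of the 10, beside 54.8% of all tested genes. The median log2 fold change of the 10 was -0.41, beside -0.02 over all tested genes, and 7 were negative. The range ran from -1.36 for Sod2 to 1.86 for Gpx3, so the enzymes did not move as a block.

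**Figure D1:**
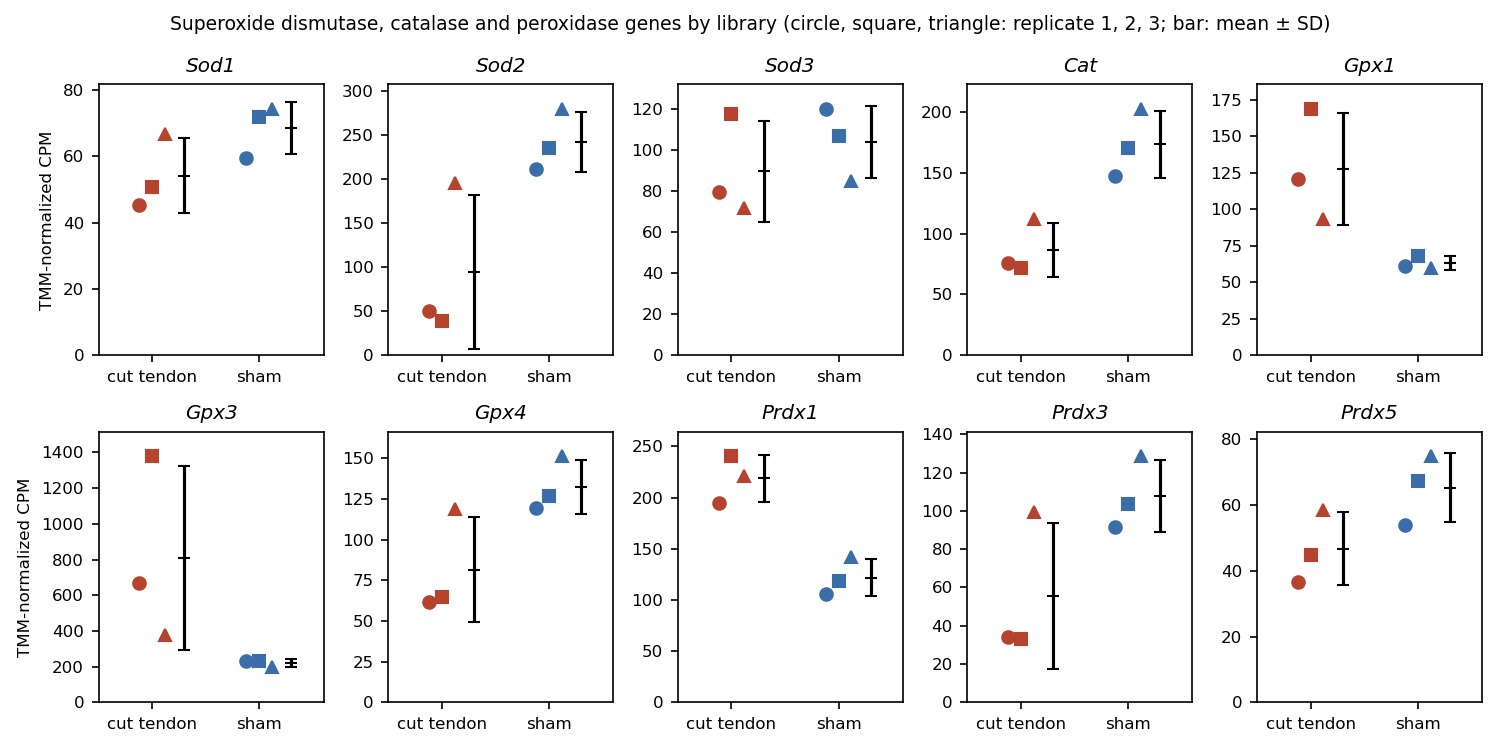
TMM-normalized CPM of each of the 10 genes in the 3 cut tendon libraries (red) and the 3 sham libraries (blue), with the mean ± SD as a bar beside each group. All 3 cut tendon libraries lie above all sham libraries for Prdx1, Gpx1 and Gpx3 and below them for Cat, while the cut tendon triangle (replicate 3) of Sod2, Gpx4, Prdx3 and Prdx5 lies near the sham values.

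Among the superoxide dismutases, Sod2 differed most between libraries. Sod2 (NCBI gene 20656, GRCm38.p6 chr17:13007839-13018119) codes for the manganese enzyme of the mitochondrial matrix. It stood at 49.8, 38.4 and 195 CPM in cut tendon 1 to 3, against 212, 235 and 279 CPM in sham 1 to 3. Cut tendon 1 and 2 were far below sham, cut tendon 3 was just below the lowest sham library, and the groups did not overlap. The log2 fold change was -1.36 ± 0.62 (SE, n = 3 per group; adjusted p = 0.13, edgeR's quasi-likelihood test), so Sod2 was not called. In edgeR it was called without cut tendon 3 at -2.45 (adjusted p = 5.5e-05), and with the replicate number as a block at -1.75 (adjusted p = 0.0462). That block takes same-numbered libraries as pairs, which the labels do not state, so calls made with it here and below are uncertain. DESeq2's Wald test, which called 17.6% of its genes lower and 21.7% higher, called Sod2 at -1.38 (adjusted p = 0.0422). With a covariate for muscle RNA (the log2 of the summed CPM of the 30 muscle genes) Sod2 stood at -0.22 (adjusted p = 0.546 in edgeR). Only cut tendon 3 had a muscle list share near sham (16.2%, beside 1.66% and 0.521% in cut tendon 1 and 2). Covariate fits here and below therefore rest mainly on cut tendon 3 against sham, and cannot separate muscle RNA from the operation. Stretches of 102 to 193 bases of Sod2 transcripts align at 95% identity or more with 9 other annotated genes, among them Tmem245 and Churc1, so reads from those stretches may be split.

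Sod1 and Sod3, the copper and zinc enzymes, were not called. Sod1 (chr16:90220762-90226333), the form of the cytosol and the mitochondrial intermembrane space, stood at 45.2, 50.6 and 66.7 CPM in cut tendon, against 59.6, 71.8 and 74.2 CPM in sham. Cut tendon 3 lay within the sham range. The log2 fold change of Sod1 was -0.34 ± 0.18 (SE, n = 3 per group; adjusted p = 0.182 in edgeR), and without cut tendon 3 it was -0.52 and was called (adjusted p = 0.012). Its transcripts share 97.8% identity over 465 bases with the pseudogene Gm8566, so reads may be split there too. Sod3 (chr5:52363804-52369738), the secreted form that binds to extracellular matrix, stood at 79.4, 118 and 71.6 CPM in cut tendon, against 119.8, 107 and 84.9 CPM in sham. The groups overlapped, with cut tendon 2 close to the highest sham library. Its log2 fold change was -0.21 ± 0.23 (SE, n = 3 per group; adjusted p = 0.488 in edgeR), and it was not called under any of the alternatives tried. The copper chaperone gene Ccs, which loads copper onto SOD1, stood at log2 0.45 ± 0.22 and was not called.

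Catalase was lower in cut tendon. Cat (NCBI gene 12359, chr2:103453904-103485153), the heme enzyme of peroxisomes, stood at 76.3, 72.1 and 112 CPM in cut tendon 1 to 3, against 148, 170.3 and 203 CPM in sham 1 to 3. All cut tendon libraries were below all sham libraries, cut tendon 3 included. The mean was 86.9 ± 22.2 CPM in cut tendon and 174 ± 27.6 CPM in sham (SD, n = 3 each), a log2 fold change of -0.998 ± 0.224 (adjusted p = 0.02, edgeR's quasi-likelihood test). The call was lost without cut tendon 1 (-0.91), cut tendon 2 (-0.88), sham 2 (-1.03) or sham 3 (-0.90), and with the muscle covariate (-0.60, adjusted p = 0.0879). Catalase RNA is also abundant in fat and in erythroid cells. Of 8 adipocyte genes, all 8 were called lower, beside 12.3% of all tested genes. Their summed share was 0.0594%, 0.0295% and 0.0561% in cut tendon, against 0.141%, 0.192% and 0.213% in sham. The 9 erythroid genes took 0.0141%, 0.00991% and 0.0260% in cut tendon, against 0.0196%, 0.0396% and 0.0572% in sham. The part of either in the Cat difference was not tested.

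The glutathione peroxidases split. Gpx1 and Gpx3 rose, and Gpx4 was below sham by values but not called. Gpx3 (NCBI gene 14778, chr11:54902854-54910387), the secreted form found in plasma and extracellular fluid, had the largest increase of the 10. It stood at 668, 1378 and 375 CPM in cut tendon 1 to 3, against 234, 234 and 198 CPM in sham 1 to 3. Cut tendon 2 was highest and cut tendon 3 lowest of the cut tendon libraries, and all 3 were above sham. The mean was 807 ± 516 CPM in cut tendon and 222 ± 20.96 CPM in sham (SD, n = 3 each), a 3.64-fold difference at log2 1.86 ± 0.48 (adjusted p = 0.0295, edgeR's quasi-likelihood test). The order of the cut tendon libraries was that of the tendon list share (8.04%, 10.1% and 3.88%), which was mostly Col1a1. It was also that of the cartilage list share (1.53%, 1.69% and 0.452%). It was the reverse of that of the muscle list share (1.66%, 0.521% and 16.2%). The part of these shares in the Gpx3 difference was not tested. The call was lost without cut tendon 1 (1.98), sham 1 (1.90), sham 2 (1.88) or sham 3 (1.75), with the muscle covariate (0.55, adjusted p = 0.135), and in limma on log2(FPKM + 1) with no filter (1.66).

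Gpx1 (NCBI gene 14775, chr9:108339080-108340342), the main cytosolic glutathione peroxidase, stood at 121, 168 and 93.0 CPM in cut tendon, against 61.4, 68.2 and 59.7 CPM in sham. All cut tendon libraries were above sham, with the same order among them as for Gpx3. The log2 fold change was 1.01 ± 0.23 (SE, n = 3 per group; adjusted p = 0.02 in edgeR), a 2.02-fold difference. Gpx1 was not called without cut tendon 1 (1.05), sham 1 (0.99), sham 2 (1.05) or sham 3 (0.94), or with the muscle covariate (0.46, adjusted p = 0.0837). Gpx1 is also well expressed in macrophages. Of 12 macrophage genes 10 were called higher, beside 20.4% of all tested genes. The 12 macrophage genes took 0.139%, 0.101% and 0.126% of counts in cut tendon, against 0.0397%, 0.0497% and 0.0448% in sham. Their order among the cut tendon libraries was the reverse of that of Gpx1 for cut tendon 1 and 2, and their part in the Gpx1 difference was not tested.

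Gpx4 (NCBI gene 625249, chr10:80047166-80056439), which reduces lipid peroxides within membranes and protects cells from ferroptosis, stood at 61.4, 64.5 and 118.8 CPM in cut tendon, against 119.2, 126 and 151 CPM in sham. Cut tendon 1 and 2 were well below sham, whereas cut tendon 3 was level with the lowest sham library. The log2 fold change was -0.70 ± 0.28 (SE, n = 3 per group; adjusted p = 0.0994 in edgeR) and was not called. It was called without cut tendon 3 (-1.07, adjusted p = 0.000466) and with the replicate block (-0.76, adjusted p = 0.0345), and stood at -0.16 with the muscle covariate. Transcripts of Gpx4 share at least 95% identity over at least 100 bases with those of 2 other annotated genes, among them the pseudogene Gpx4-ps2, so reads may be split between copies.

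Prdx1 had the smallest p of the 10 genes. Prdx1 (NCBI gene 18477, chr4:116685599-116700000), the abundant cytosolic peroxiredoxin, stood at 195, 240.3 and 221 CPM in cut tendon 1 to 3, against 105, 119 and 142 CPM in sham 1 to 3. All cut tendon libraries were above sham, and cut tendon 3 lay between the other cut tendon libraries. The mean was 219 ± 22.7 CPM in cut tendon and 122 ± 18.3 CPM in sham (SD, n = 3 each), a 1.80-fold difference at log2 0.85 ± 0.17 (adjusted p = 0.015, edgeR's quasi-likelihood test). Under the muscle covariate it was 0.81 and was called (adjusted p = 0.0356 in edgeR), the only one of the 10 that was. That fit rests mainly on cut tendon 3, where Prdx1 was at log2 0.86 against the sham mean. The call made without the covariate was lost in edgeR without sham 1 (0.75, adjusted p = 0.0636) or sham 2 (0.81, adjusted p = 0.078). Prdx1 transcripts share at least 95% identity over at least 100 bases with 2 annotated pseudogenes, Gm21399 and Gm7204. Its reads may be split, as those of Gpx4, Sod1 and Sod2 may. The other 6 genes had no such match. By name, none of the matching genes of Prdx1, Gpx4 or Sod1 was among the counted genes, whereas 5 of those of Sod2 were. How reads shared with a matching gene were counted is not known here.

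Prdx3 (NCBI gene 11757, chr19:60864066-60874538), the peroxiredoxin of the mitochondrial matrix, was lowest in cut tendon 1 and 2, as Sod2 was. It stood at 34.3, 33.1 and 99.4 CPM in cut tendon, against 91.3, 103 and 128 CPM in sham. Cut tendon 1 and 2 were below every sham library and cut tendon 3 was within the sham range. The log2 fold change was -0.95 ± 0.45 (SE, n = 3 per group; adjusted p = 0.143 in edgeR) and was not called. Without cut tendon 3 it was called at -1.67 (adjusted p = 0.000121), with the replicate block at -1.14 (adjusted p = 0.0417), and with the muscle covariate it stood at -0.09.

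Prdx5 (NCBI gene 54683, chr19:6906697-6910106), a peroxiredoxin of mitochondria, peroxisomes and cytosol, stood at 36.7, 44.9 and 58.5 CPM in cut tendon, against 53.9, 67.2 and 74.8 CPM in sham. The groups overlapped through cut tendon 3. Its log2 fold change was -0.48 ± 0.21 (SE, n = 3 per group; adjusted p = 0.119 in edgeR). Prdx5 was called without cut tendon 3 (-0.68, adjusted p = 0.0096) and with the replicate block (-0.50, adjusted p = 0.0288). Exons of Prdx5 overlap those of Trmt112 on the other strand, and since no strand setting of the counting is known here, the reads of this pair may be mixed.

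Set against the sham mean, cut tendon 3 varied from gene to gene. In that library the summed muscle share was 16.2%, against 19.6% to 21.8% in sham. Its single muscle genes went both ways against the sham mean. Mb was at log2 -1.16 and Myh7 at -0.96, but Pvalb was at 1.29 and Myh4 at 0.90. The summed share and the muscle covariate do not show such differences. In cut tendon 3, Prdx1 was at log2 0.86, Gpx3 at 0.76, Gpx1 at 0.56 and Cat at -0.63. Sod3, which was not called, was at -0.54, about as far from sham as Gpx1. In the same library Sod2 was at -0.31, Gpx4 at -0.15, Prdx5 at -0.16, Prdx3 at -0.12 and Sod1 at -0.04. In cut tendon 1 and 2, with little muscle RNA, Sod2 was at -2.28 and -2.66, Prdx3 at -1.65 and -1.70, and Gpx4 at -1.11 and -1.04. Without cut tendon 3, the fit called 3 of the 10 higher and 6 lower, beside 28.5% and 29.7% of all genes. With the replicate block it called 3 higher and 5 lower, beside 21.7% and 17.3%, and with the muscle covariate 1 higher and none lower, beside 10.2% and 4.40%. At an unadjusted p under 0.05 in edgeR, the covariate fit had 3 higher (Prdx1, Gpx1 and Gpx3) and 2 lower (Cat and Sod3), beside 17.9% and 12.3% of all genes. No other test of the muscle share was made.

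**Figure D2:**
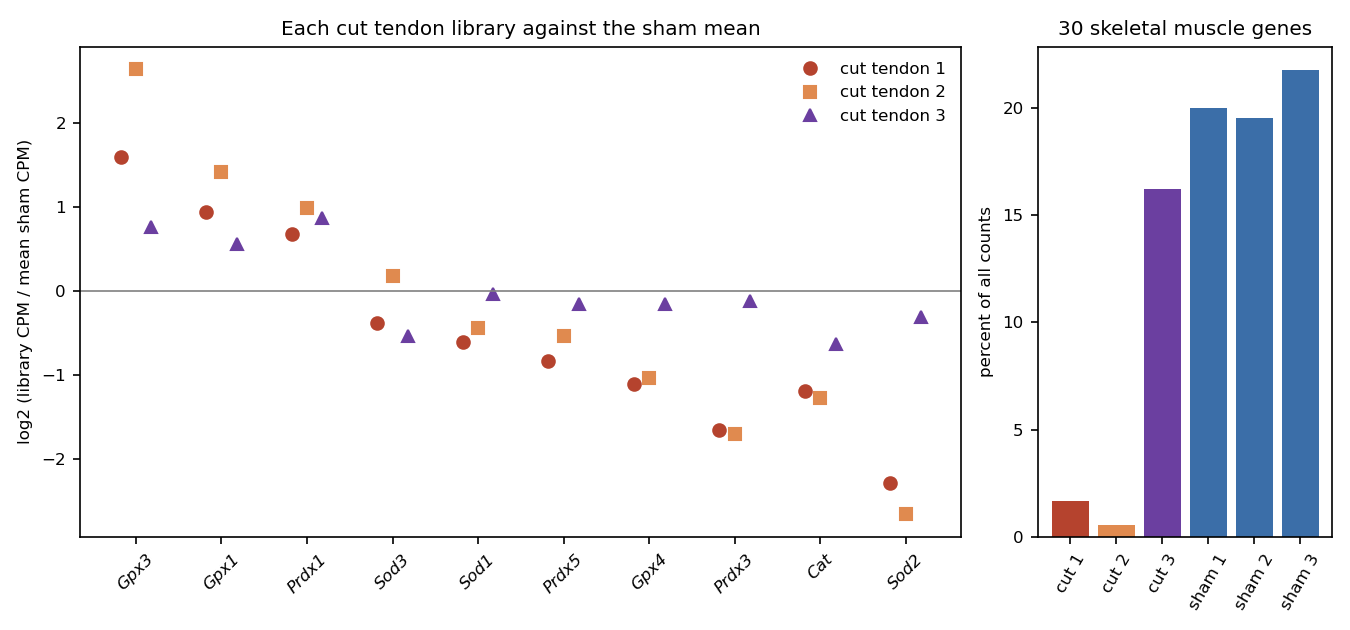
Left, log2 of each cut tendon library's CPM over the mean sham CPM for the 10 genes, ordered by log2 fold change. Right, percent of all counts taken by 30 skeletal muscle genes in each library. Cut tendon 3 (purple triangles, 16.2% muscle counts) lies near 0 for Sod1, Prdx5, Gpx4 and Prdx3, further from 0 for Sod2 (-0.31), and furthest for Gpx3, Prdx1, Cat, Gpx1 and Sod3, of which Sod3 was not called.

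Levels were compared between genes as FPKM, which divides counts by gene length. Gpx3 had the highest level in both groups, with 481, 876 and 235 FPKM in cut tendon and 158, 156 and 126 FPKM in sham, and its range did not overlap that of the next gene in either group. The order below it differed. In cut tendon it ran Prdx1 (mean 154 FPKM), Gpx1 (122), Sod1 (83.1), Prdx5 (67.4), Gpx4 (65.1), Sod3 (43.7), Prdx3 (37.8), Cat (33.9) and Sod2 (24.1). In sham it ran Gpx4 (mean 106 FPKM), Sod1 (105), Prdx5 (94.6), Prdx1 (85.7), Prdx3 (74.3), Cat (67.8), Sod2 (63.0), Gpx1 (60.4) and Sod3 (50.9). Below Gpx3, the ranges of neighbours in the order overlapped for all 8 pairs in each group. These ranges were taken across libraries, so neighbours can still keep the same order within every library. Prdx5 was above Prdx1 in every sham library, and Prdx1 was above Gpx1 in every cut tendon library. The highest mean was 22.0 times the lowest in cut tendon and 2.88 times in sham. The 10 genes together took 0.149%, 0.213% and 0.134% of counts in cut tendon, against 0.123%, 0.131% and 0.135% in sham.

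Ratios of FPKM within a library do not depend on how libraries are scaled. For the dismutases and the peroxiredoxins, the ratio of the mitochondrial matrix form to the cytosolic form was lower in every cut tendon library than in every sham library. Sod2 over Sod1 was 0.187, 0.129 and 0.495 in cut tendon 1 to 3, against 0.602, 0.554 and 0.638 in sham 1 to 3. Prdx3 over Prdx1 was 0.173, 0.135 and 0.440 in cut tendon, against 0.850, 0.855 and 0.889 in sham, a log2 difference of -1.99. This ratio was close to constant in sham, and in cut tendon 3 as well it was below all sham values. In cut tendon 3, however, Prdx3 itself was within the sham range, and Prdx1 was above it. Among the cut tendon libraries, both ratios had the order of the muscle list share (1.66%, 0.521% and 16.2%). The part of muscle RNA in these ratios was not tested.

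Prdx5 over Prdx1 was 0.387, 0.385 and 0.545 in cut tendon, against 1.05, 1.17 and 1.09 in sham, so that Prdx5 was above Prdx1 in sham and below it in cut tendon. Gpx4 over Gpx1 was 0.427, 0.322 and 1.07 in cut tendon, against 1.63, 1.56 and 2.13 in sham. Gpx3 over Gpx1, the secreted over the cytosolic form, was 3.80, 5.63 and 2.77 in cut tendon, against 2.62, 2.37 and 2.28 in sham. Each of these 5 ratios gave p = 0.1 in a two-sided exact permutation test, which cannot go lower with 3 libraries a group (p = 0.12 adjusted over 6 ratios). Any ratio whose groups do not overlap gives that value. The ratios reuse the genes described above, so they are not separate evidence. Sod3 over Sod1 overlapped between groups, with 0.557, 0.736 and 0.340 in cut tendon against 0.638, 0.470 and 0.363 in sham (exact permutation p = 0.8).

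**Figure D3:**
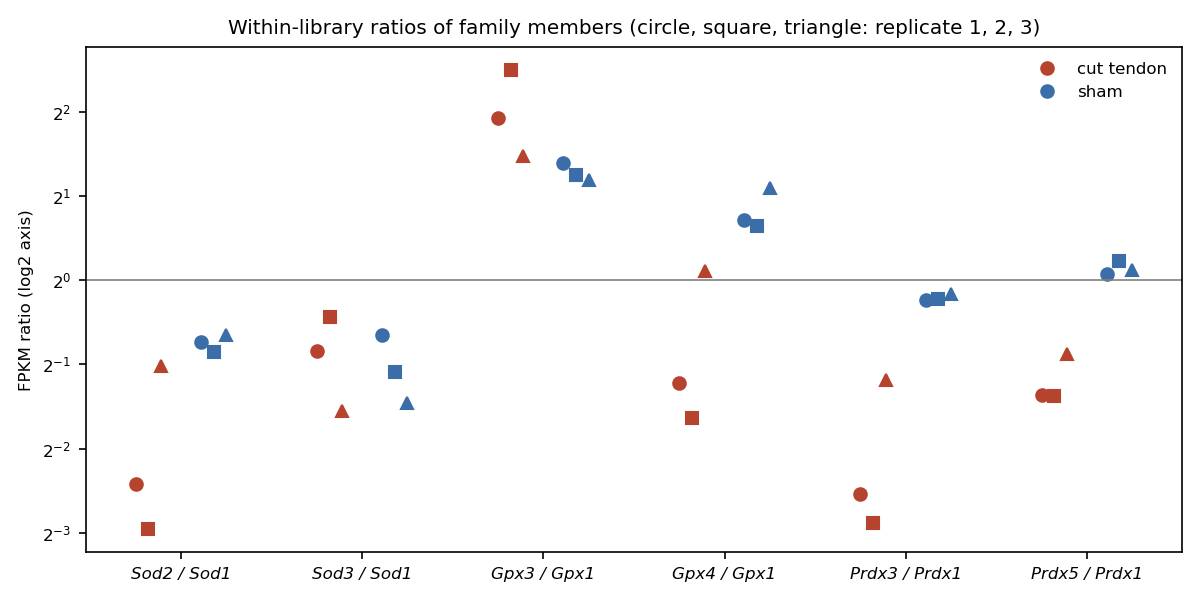
Ratio of FPKM of pairs of genes of a family within each library, on a log2 axis, for cut tendon (red) and sham (blue), with a symbol per replicate. Groups do not overlap for 5 of the 6 ratios, and they overlap for Sod3 over Sod1. The share of other gene pairs without overlap was not counted. Of all tested single genes, 54.8% did not overlap.

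Upstream sequence was searched for the antioxidant response element, the motif bound by NRF2, which activates several genes of this group. The letters searched were TGACNNNGC and TGAGNNNGC on both strands of the 250 bases before the start site, from RefSeq on GRCm38.p6. Sequences were given for 9 of the 10 genes. At least 1 match was present in 2 of these 9, Prdx1 and Sod1, beside 23.0% of all 32851 upstream windows of that length. The first count is of genes and the second of windows, and a gene such as Gpx4 has several windows. The windows of Prdx1 and Sod1 are shown, with matches in capitals, because the same motif stood before a gene that rose and before a gene that was not called. The Prdx1 window is chr4:116685349-116685598 and the Sod1 window chr16:90220512-90220761, both on the plus strand.
Prdx1: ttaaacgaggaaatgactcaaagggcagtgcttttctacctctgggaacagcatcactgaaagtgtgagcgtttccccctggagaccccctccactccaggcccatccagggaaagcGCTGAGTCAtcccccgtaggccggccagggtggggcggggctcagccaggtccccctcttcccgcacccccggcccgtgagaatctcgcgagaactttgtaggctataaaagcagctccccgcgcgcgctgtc
Sod1: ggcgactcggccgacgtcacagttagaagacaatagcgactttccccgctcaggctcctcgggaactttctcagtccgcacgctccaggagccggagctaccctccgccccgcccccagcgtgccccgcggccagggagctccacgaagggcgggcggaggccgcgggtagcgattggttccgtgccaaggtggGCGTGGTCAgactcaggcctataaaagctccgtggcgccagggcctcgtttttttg
The Prdx1 match begins 133 bases before the start site and the Sod1 match 56 bases before it. The Prdx1 match contains TGAGTCA, the element of AP-1, which was found 2 times in that window and in 4.46% of all windows. A match of letters is a description and does not show that a factor binds.

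Other enzymes of the same families held the 2 highest log2 fold changes among 40 tested genes of the pathway. Of 6 tested (3 more, Gpx2, Gpx5 and Gpx6, were too low to test), 3 were called higher and 1 lower. Over all tested genes these shares were 20.4% and 12.3%. Gpx7, a peroxidase of the endoplasmic reticulum, where collagen and other secreted proteins are folded, stood at 27.9, 39.2 and 17.8 CPM in cut tendon, against 4.13, 3.71 and 4.66 CPM in sham. Its log2 fold change was 2.76 ± 0.31 (adjusted p = 0.00403 in edgeR's test, n = 3 per group). Gpx8, a membrane protein of the same compartment, stood at 53.0, 76.3 and 40.1 CPM in cut tendon, against 15.9, 14.1 and 13.1 CPM in sham (log2 1.97 ± 0.25). Prdx4, the peroxiredoxin of that compartment, was the remaining gene that rose (log2 1.33 ± 0.22). All 3 cut tendon libraries were above sham for Gpx7, Gpx8 and Prdx4, and Gpx7 and Gpx8 were called under all 16 alternatives. Prdx4 was not followed under them.

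Prdx6, a peroxiredoxin that uses glutathione and also acts on phospholipids, was the family enzyme that fell. It stood at 54.2, 53.1 and 83.5 CPM in cut tendon, against 100.7, 119 and 126 CPM in sham (log2 -0.86 ± 0.21). Its call was lost without any 1 of cut tendon 1 (-0.75), cut tendon 2 (-0.75), sham 1 (-0.95), sham 2 (-0.85) or sham 3 (-0.82), and with the muscle covariate (-0.45). Prdx2, abundant in red cells, stood at log2 0.04 ± 0.16 and was not called.

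Of 18 genes of the thioredoxin and glutaredoxin systems, 3 were higher and 2 lower, beside 20.4% and 12.3% of all tested genes. Sesn3, a stress-induced sestrin, stood at 51.9, 55.0 and 49.5 CPM in cut tendon, against 34.1, 29.3 and 30.9 CPM in sham (log2 0.73 ± 0.11, adjusted p = 0.00724 in edgeR's test), and cut tendon 3 was close to the other cut tendon libraries. Txnrd3, a thioredoxin reductase, fell by 0.81 ± 0.15 on the log2 scale, and was not called without sham 2 (-0.73) or with the muscle covariate (-0.69). Sesn2 (0.69, adjusted p = 0.0477 in edgeR's test) and Txn1 (0.65, adjusted p = 0.0295), the cytosolic thioredoxin that serves Prdx1, also rose. Msrb2 (-0.97, adjusted p = 0.0439 in edgeR's test), a methionine sulfoxide reductase of mitochondria, also fell. The calls of Sesn2, Txn1 and Msrb2 were not followed under the alternatives. Txn2, the mitochondrial thioredoxin that serves Prdx3, stood at 39.3, 44.3 and 85.3 CPM in cut tendon, against 80.1, 91.2 and 100.9 CPM in sham. Its log2 fold change was -0.69 ± 0.31, which was not called, and cut tendon 3 lay within the sham range, as it did for Prdx3.

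Of 9 tested genes of glutathione synthesis and turnover, 1 was higher and 2 were lower, beside 20.4% and 12.3% of all tested genes. Gclc, the catalytic subunit of the first step of glutathione synthesis, stood at 18.4, 17.6 and 20.1 CPM in cut tendon, against 26.1, 27.4 and 26.8 CPM in sham (log2 -0.52 ± 0.11). Oplah, which recycles oxoproline to glutamate, fell by 1.06 ± 0.22 on the log2 scale. Slc7a11, the cystine importer, rose by log2 1.46 ± 0.42 at low abundance, with 5.19, 2.46 and 4.33 CPM in cut tendon, against 2.04, 1.48 and 0.840 CPM in sham. Gclc was not called without cut tendon 1 (-0.50), sham 1 (-0.54), sham 2 (-0.52) or sham 3 (-0.55), Oplah not without cut tendon 1 (-0.92), sham 2 (-1.02) or sham 3 (-1.10), and Slc7a11 not without cut tendon 1 (1.23), sham 1 (1.78), sham 2 (1.45) or sham 3 (1.15). Slc7a11 was also not called in limma on log2(FPKM + 1), with and without the filter (0.30 in both), or on log2(FPKM + 0.1) (1.03). None of these 3 was called with the muscle covariate (-0.40, -0.65 and 1.78).

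Of 7 genes that make or supply selenoproteins, on which Gpx1, Gpx3 and Gpx4 depend, 1 was higher and 1 lower. Over all tested genes 20.4% were higher and 12.3% lower. Secisbp2, which binds the selenocysteine insertion element of the messenger RNA, stood at 16.9, 19.2 and 17.3 CPM in cut tendon, against 26.1, 25.8 and 23.4 CPM in sham (log2 -0.50 ± 0.11). Lrp8, a receptor for selenoprotein P, rose by log2 1.83 ± 0.50 at low abundance, with 5.67, 7.39 and 2.25 CPM in cut tendon, against 1.72, 1.70 and 0.878 CPM in sham. Secisbp2 was not called without cut tendon 1 (-0.46), sham 1 (-0.47) or sham 2 (-0.50), nor with the muscle covariate (-0.57). Lrp8 was called with all 6 libraries and without cut tendon 3, but without any other library its call was lost (1.48 to 1.98), as it was in limma-voom (1.72), in limma on log2(FPKM + 1) with and without the filter (0.47 in both) and on log2(FPKM + 0.1) (1.32), and with the muscle covariate (0.57). Log2 differences after adding a pseudocount understate those of low genes such as Lrp8. Over the 4 lists, 8 of 40 tested genes were higher and 6 lower, beside 20.4% and 12.3% of all genes, with a median log2 fold change of -0.10. With the replicate block 11 were lower, beside 17.3% of all genes, and without cut tendon 3, 16 were, beside 29.7% of all genes.

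**Figure D4:**
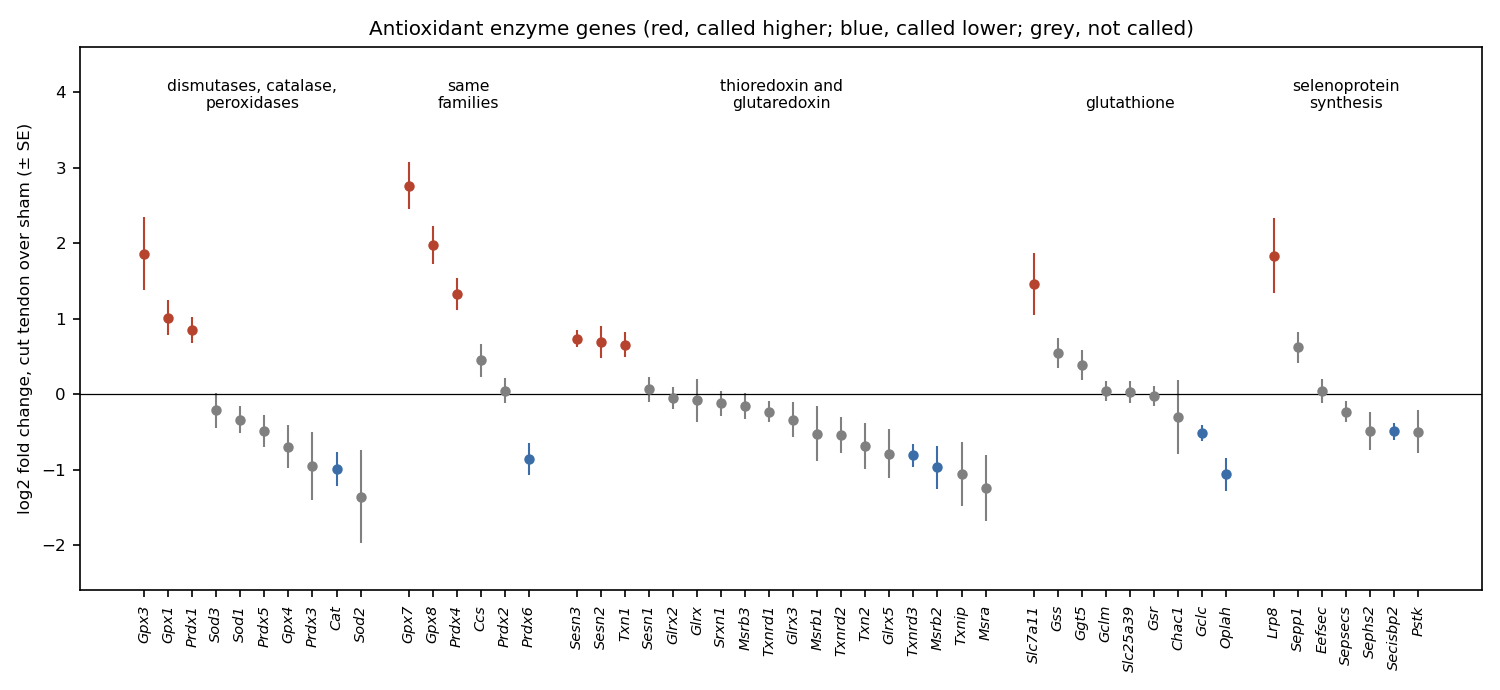
Log2 fold change of cut tendon over sham with its SE for the 10 genes and for 40 tested genes of 4 related lists, ordered by value within each list. Red marks genes called higher, blue genes called lower and grey genes not called. Gpx7, Gpx8 and Gpx3 are the highest, and Sod2 has the lowest value and a wide error bar.

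The genes most like Prdx1 across the 6 libraries, by Pearson r of log2 CPM and as a description, were Hist1h3i (0.999), Dscr3 (0.997) and Podxl2 (0.997). Those most like Cat were Otud3 (0.999), Gbp6 (0.997) and Usp12 (0.997). These genes were picked as the highest among all tested genes, over only 6 libraries in 2 groups. How many others came close was not counted. Hist1h3i and Gbp6 belong to families of near-identical copies, so their counts are uncertain.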

How the data were processed

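Trimmomatic, HISAT2 and the build GRCm38.p6 are named in the submitters' processing notes, without versions. Libraries were stranded and depleted of ribosomal RNA, per the labels' protocols. The counting program and its strand setting are not given in the sources used here. The deposited count table holds raw whole-number counts per gene. The deposited FPKM table, made by the authors, holds those counts divided by gene length and library total, as its values show within a relative tolerance of 0.0001 in 100% of the 15164 genes counted in every library.

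Counts were fitted in R 4.3.3 with edgeR 4.0.16 (filterByExpr, TMM, quasi-likelihood test, Benjamini-Hochberg adjustment over 14561 tested genes, threshold 0.05). SE is the absolute log2 fold change over the square root of F. No libraries were duplicates, the closest pair (sham 1 and 2) differing by a chi-square of 13.4 per gene. Alternatives were DESeq2 1.42.0, limma 3.58.1 (voom, log2(FPKM + 1) and log2(FPKM + 0.1)), other scalings and filters, and each library left out. Others were a block for the replicate number and a muscle covariate, the log2 of the CPM summed over 30 muscle genes. The labels give both groups the numbers 1 to 3. Deviations from the group means of same-numbered libraries correlated at 0.26, 0.13 and 0.41, and those of unlike-numbered libraries at -0.33 to 0.24, with cut tendon 2 closer to sham 1 (0.24) than to sham 2. The numbers were treated as pairs because every same-numbered correlation was over 0.1, not from a stated design. Cut tendon 1 with sham 2 (0.11) and cut tendon 2 with sham 1 (0.24) were over 0.1 as well. The rule therefore does not single out pairs, and the pairing and the calls made with the block are uncertain. Near-identical transcripts were found with BLAST 2.17.0 at 95% identity over 100 bases in GENCODE M21.

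The members, gene lists and alternatives were chosen with earlier results of these data known. Pathway genes named by rule are the 2 with the smallest p of each list, plus the best of the opposite direction where a list has calls both ways. Ccs, Prdx2, Prdx4, Txn1, Txn2, Sesn2 and Msrb2 were named after their values were seen.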

Additional observations from a re-analysis of the deposited data

How the results depend on the processing

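Of all tested genes, 2968 were called higher and 1789 lower in cut tendon. With each library left out in turn these counts ran from 1091 (without sham 2) to 4212 (without cut tendon 3) higher and from 436 to 4392 lower, and with the muscle covariate they were 1483 and 640. DESeq2 called 2753 lower. Of the 10 genes, 3 were higher and 1 lower, with 0 to 3 higher and 0 to 6 lower when a library was left out. Without sham 1, Cat was the only gene called, and without sham 2 none was. The muscle covariate left 1 higher and 0 lower, DESeq2 called 2 lower, and the replicate block called 5 lower. Of the related genes, 8 were higher and 6 lower, with 4 to 11 higher and 0 to 16 lower when a library was left out, 5 higher on each of the 3 FPKM scales, 5 higher and 0 lower with the muscle covariate, and 11 lower with the replicate block. The replicate block changed no other call among the genes named by rule. Sod3 over Sod1 ran from -0.13 to 0.42 on the log2 scale with a library left out, reversing without cut tendon 2 or sham 3. The other 5 ratios kept their direction under all alternatives. FPKM levels moved by less than 1 SD with TMM scaling. Fits without a library have 5 libraries, and the causes of the other changes were not tested.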
